A study of Mus musculus with 6 samples.

Results

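The genes described here are 30 genes of cholesterol synthesis and sterol homeostasis, found by their symbols among the 55401 genes of a deposited expression table of mouse liver. All 30 were present, each as a single entry, and all 30 passed the filter on low values, a mean of at least 1 FPKM (fragments per kilobase, a level corrected for transcript length and depth) over the 6 libraries, as did 10051 genes in all. They comprise 8 genes of the mevalonate steps, 11 of the squalene and sterol steps, 4 genes that sense sterols, and 7 genes of sterol traffic, turnover, efflux and ester storage. Other genes of the pathway are not analysed here.

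Poly(A) RNA was sequenced from livers of C57BL/6 mice in 3 groups of 2 libraries each. In the COS+APAP group, mice had received costunolide (COS, a sesquiterpene lactone from plants) at 20 mg/kg 12 h and once more 40 min ahead of an intraperitoneal dose of 400 mg/kg acetaminophen (APAP, paracetamol), which acted for 6 h. In the APAP group the same dose of APAP acted for 6 h without costunolide. The third group is labelled control, and no vehicle, age, sex, feeding state or hour of collection is given in the sources used here. No genotype other than the strain is named. Separate animals per library are not stated, so p-values measure only the spread between these libraries, which may be technical. The protocol text assigns the costunolide pretreatment to samples 5 and 6, whereas titles, source names and treatment fields assign it to the libraries titled drug. The titles were followed, and under the protocol's numbering APAP and COS+APAP could be exchanged: each COS+APAP versus APAP difference would then have the opposite sign, and the values given for APAP against control would be those of COS+APAP against control, and the reverse. A prefix in the titles is 2 for COS+APAP libraries and 1 for APAP and control libraries, and whatever it stands for cannot be told apart from costunolide.

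Liver makes cholesterol from acetyl-CoA through mevalonate, isoprenoid diphosphates, squalene and lanosterol. The transcription factor SREBP2, encoded by *Srebf2*, drives most genes of this route: when sterols are low, its escort SCAP carries it from the endoplasmic reticulum to the Golgi for cleavage, and when sterols are high, the INSIG proteins hold the SCAP-SREBP complex back. Excess sterols activate LXRalpha, encoded by *Nr1h3*, whose targets include the efflux pumps *Abca1*, *Abcg5* and *Abcg8* and the ubiquitin ligase *Mylip*, which degrades lipoprotein receptors. In mouse liver, *Insig1* is itself an SREBP target, whereas a liver transcript of *Insig2* is known to rise in fasting and to fall with insulin.

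Libraries held 71115112 to 76669799 estimated counts, and libraries of a group correlated at r = 0.973 to 0.979 across tested genes against 0.862 to 0.939 between groups (log2(FPKM + 1), genes not being independent replicates). Markers fixed for hepatocytes summed to 53636 and 57961 FPKM in COS+APAP, 67318 and 69718 in APAP, and 62180 and 62842 in control, so the tissue label was borne out by abundant *Alb* and *Apoa1*. Of the 7 tested markers of hepatocytes around the central vein, the site of APAP injury, 7 rose in COS+APAP relative to APAP, 1 fell in COS+APAP relative to control, and 7 fell in APAP relative to control. The same changes were called in 11.2%, 10.3% and 22.1% of all tested genes, in that order, by the edgeR test described below. These pericentral markers summed to 2787 to 3357 FPKM in COS+APAP, 903 to 1310 in APAP and 2602 to 3327 in control. Erythroid markers summed to 309 to 316, 1075 to 1492 and 269 to 298 FPKM in the same order of groups, monocyte markers to 2.43 to 3.41, 18.9 to 39.8 and 1.3 to 2.09, and neutrophil markers to 2.47 to 3.84, 10.3 to 31.6 and 4.06 to 6.5. Of the monocyte markers *Thbs1* and *Cd14* alone passed the filter, *Ly6c2* and *Ccr2* did not exceed 0.2 FPKM in any library, and *Chil3* was listed at 0 in 4 libraries. The neutrophil marker *Ly6g* was listed at 0 in all 6. Kupffer cell markers ranged from 82.1 to 128 FPKM over all libraries, and lymphocyte markers from 0.86 to 1.62. Stellate cell markers summed to 17.95 and 13.17 FPKM in COS+APAP, 40.55 and 37.73 in APAP, and 32.56 and 33.25 in control. In the same order of groups, sinusoidal endothelium markers summed to 22.42 and 20.27, 34.28 and 33.0, and 25.51 and 28.7. Cholangiocyte markers summed to 20.15 and 21.0, 51.03 and 35.37, and 28.49 and 34.42. Periportal hepatocyte markers summed to 2434 to 2505 FPKM in COS+APAP, 2381 to 2670 in APAP and 1622 to 2077 in control. In bulk tissue, fewer cells of a type and less RNA per cell cannot be told apart, and the part of these shifts in the sterol gene results was not tested.

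How the route stood 6 h after the toxic dose was read from APAP against control. Of the 30 genes, 17 fell and 3 rose (edgeR's quasi-likelihood test, Benjamini-Hochberg adjusted p below 0.05 over all 10051 tested genes, used for all calls below), beside 22.1% of all tested genes called lower, 23.3% called higher and 45.4% called in either direction. The falls lay almost wholly in the enzymes: 15 of 19 synthesis enzymes fell and 0 rose. No enzyme was higher at an unadjusted p below 0.05 either, and DESeq2 and limma also called 0 higher, with 16 lower each. The median log2 fold change was -1.71 over the 19 enzymes and 0.00 over all tested genes. In all 19 enzymes both APAP libraries lay below both control libraries in FPKM, an order that 44.1% of tested genes showed. Over all 30 genes, 24 had that order and 3 had the opposite order, which 32.1% of tested genes showed. Such orders, here and below, compare FPKM as deposited, without the scaling between libraries that the edgeR test applied.

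**Figure D1:**
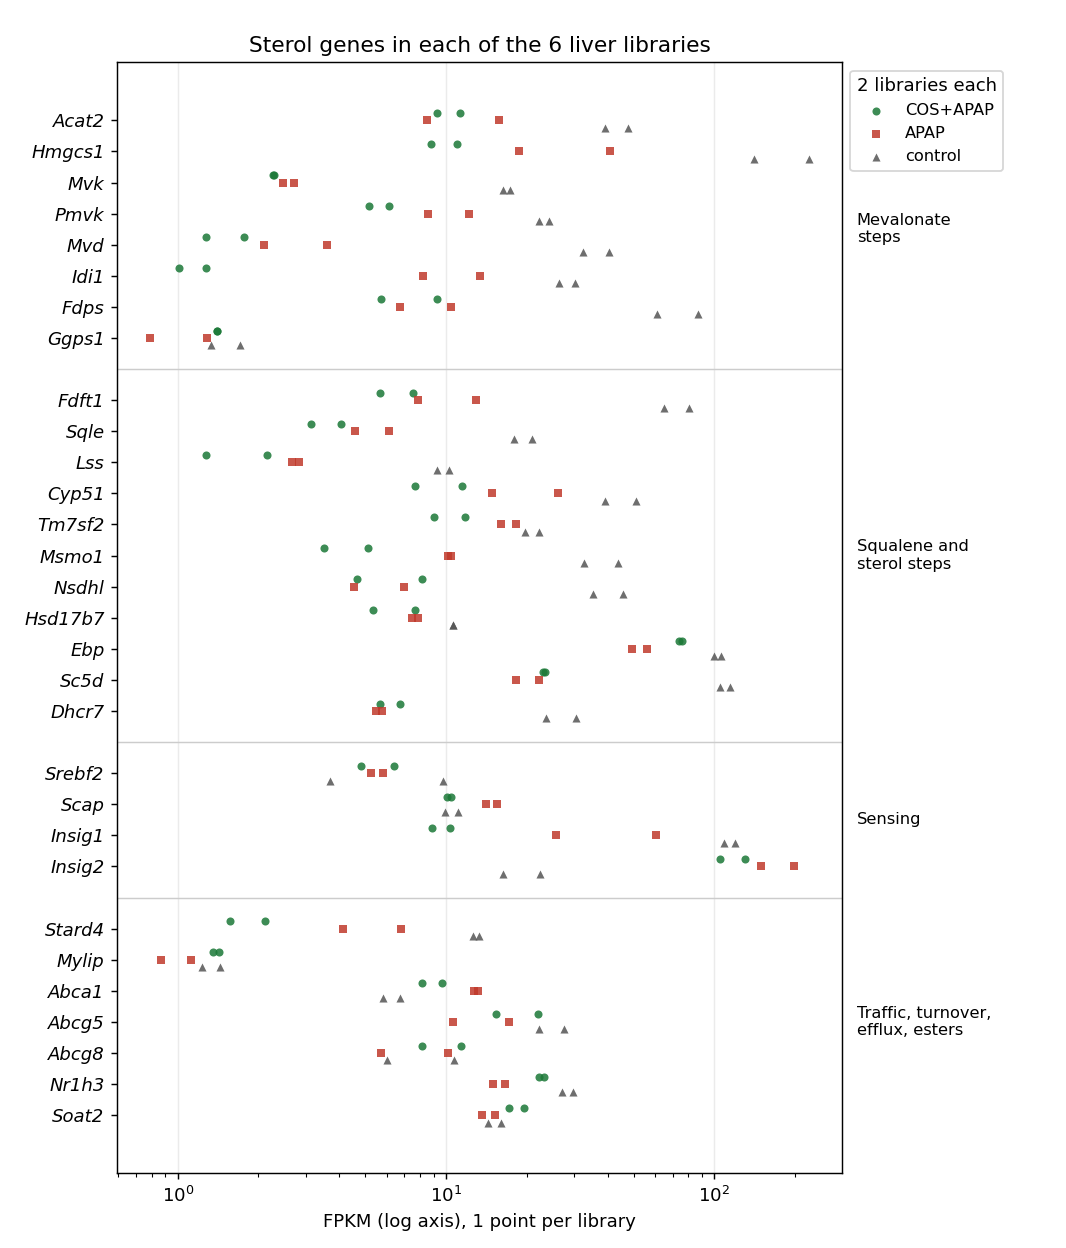
FPKM of the 30 sterol genes on a log axis, 1 point per library, with circles for COS+APAP, squares for APAP and triangles for control. In 18 of the 19 enzyme rows both COS+APAP points lie left of both control points, as 42.3% of tested genes did, and the row of *Insig2* runs the other way.

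Of the 8 genes of the mevalonate steps, 7 fell, with a median log2 fold change of -2.08. *Hmgcs1*, the cytosolic HMG-CoA synthase (ENSMUSG00000093930, chromosome 13, 119690379 to 119708260), had 10.94 and 8.8 FPKM in COS+APAP, 40.91 and 18.72 in APAP, and 140.84 and 225.56 in control. The 3 groups did not overlap, COS+APAP being lowest. Its log2 fold change in APAP against control was -2.47 ± 0.44 (SE, adjusted p = 0.00842), and -3.18 without APAP replicate 1. *Mvd*, the decarboxylase that makes isopentenyl diphosphate (ENSMUSG00000006517, chromosome 8, 122433601 to 122443422), had 1.27 and 1.77 FPKM in COS+APAP, 3.61 and 2.1 in APAP, and 32.34 and 40.31 in control. Both groups that received APAP were far below control, APAP alone by 11.5-fold (log2 fold change -3.52 ± 0.35, adjusted p = 0.00185), the deepest fall among the 30 genes in this comparison. *Fdps*, farnesyl diphosphate synthase, had 9.28 and 5.7 FPKM in COS+APAP, 10.4 and 6.74 in APAP, and 60.91 and 86.7 in control. Here the APAP and COS+APAP libraries overlapped, both under control, and the log2 fold change in APAP was -2.96 ± 0.36 (adjusted p = 0.00296). *Mvk*, mevalonate kinase, had 2.26 and 2.28 FPKM in COS+APAP, 2.47 and 2.71 in APAP, and 16.37 and 17.24 in control, with little spread within any group. Its log2 fold change in APAP was -2.56 ± 0.12 (adjusted p = 0.000878).

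The remaining mevalonate genes moved less. *Idi1*, the isomerase of isopentenyl diphosphate (ENSMUSG00000058258, chromosome 13, 8885501 to 8892451), had 1.27 and 1.01 FPKM in COS+APAP, 13.35 and 8.23 in APAP, and 26.46 and 30.32 in control. APAP libraries held a level between the other groups (log2 fold change against control -1.25 ± 0.27, adjusted p = 0.0144). *Pmvk*, phosphomevalonate kinase, had 6.11 and 5.18 FPKM in COS+APAP, 12.18 and 8.54 in APAP, and 22.19 and 24.29 in control, and showed the same order (-1.02 ± 0.21, adjusted p = 0.0133). Both of these calls were lost without control replicate 3 (adjusted p = 0.0623 for *Idi1* and 0.0563 for *Pmvk*). *Acat2*, the cytosolic thiolase that starts the route, had 9.29 and 11.29 FPKM in COS+APAP, 15.79 and 8.5 in APAP, and 39.07 and 47.53 in control (-1.69 ± 0.33, adjusted p = 0.0107). It can share reads with its close paralog *Acat3*, which fell as well (log2 fold change -0.98), so its value is uncertain to that extent. *Ggps1*, which makes the geranylgeranyl diphosphate used to modify proteins rather than sterol, had 1.4 and 1.4 FPKM in COS+APAP, 0.79 and 1.29 in APAP, and 1.33 and 1.71 in control, and was not called (-0.42 ± 0.27, adjusted p = 0.25).

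Of the 11 genes of the squalene and sterol steps, 8 fell, with a median of -1.71. *Fdft1*, squalene synthase, the first enzyme committed to sterols, had 7.51 and 5.69 FPKM in COS+APAP, 12.96 and 7.89 in APAP, and 64.93 and 80.33 in control. Its level in APAP was 6.30-fold lower than in control (log2 fold change -2.65 ± 0.30, adjusted p = 0.00253). *Fdft1* overlaps 774 exon bases of *Ctsb* on the other strand, and since the counting is not stated to use strand, reads there cannot be assigned; *Ctsb* itself, at 53.08 to 66.49 FPKM, was not called in any comparison. *Sqle*, squalene epoxidase, a rate-limiting oxygenase, had 4.07 and 3.14 FPKM in COS+APAP, 6.14 and 4.59 in APAP, and 17.97 and 20.9 in control (-1.71 ± 0.22, adjusted p = 0.00318). The cyclase *Lss*, which forms lanosterol, had 2.15 and 1.27 FPKM in COS+APAP, 2.66 and 2.82 in APAP, and 9.22 and 10.23 in control (-1.69 ± 0.25, adjusted p = 0.00484). Both genes kept all 3 groups apart.

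Among the enzymes that trim lanosterol to cholesterol, *Nsdhl*, a sterol dehydrogenase on the X chromosome, had 8.11 and 4.66 FPKM in COS+APAP, 6.97 and 4.55 in APAP, and 35.26 and 45.59 in control (-2.67 ± 0.36, adjusted p = 0.0037). *Msmo1*, the methylsterol oxidase, had 5.11 and 3.52 FPKM in COS+APAP, 10.45 and 10.13 in APAP, and 32.79 and 43.62 in control (-1.75 ± 0.22, adjusted p = 0.00329). *Sc5d*, a sterol desaturase, had 23.29 and 23.05 FPKM in COS+APAP, 22.29 and 18.25 in APAP, and 104.57 and 114.48 in control (-2.29 ± 0.15, adjusted p = 0.00108). For *Sc5d* the 4 libraries that received APAP lay close together and far under control. *Dhcr7*, a reductase of the last steps, had 6.74 and 5.68 FPKM in COS+APAP, 5.79 and 5.46 in APAP, and 23.65 and 30.48 in control (-2.12 ± 0.17, adjusted p = 0.00134). *Ebp*, the sterol isomerase, had 73.72 and 75.85 FPKM in COS+APAP, 55.93 and 49.35 in APAP, and 99.86 and 105.71 in control, the smallest fall of the called enzymes (-0.83 ± 0.12, adjusted p = 0.00458).

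Not called in this comparison were *Cyp51*, *Tm7sf2* and *Hsd17b7*. *Cyp51*, the lanosterol demethylase, had 11.44 and 7.67 FPKM in COS+APAP, 26.17 and 14.88 in APAP, and 39.06 and 50.93 in control. Its APAP libraries lay below control yet far from each other (-0.99 ± 0.34, adjusted p = 0.0617), and DESeq2, limma and upper quartile scaling did call it (adjusted p of 0.0186 to 0.0451). *Tm7sf2*, a sterol reductase, had 11.73 and 9.03 FPKM in COS+APAP, 16.09 and 18.27 in APAP, and 19.61 and 22.16 in control (-0.15 ± 0.15, adjusted p = 0.482). *Tm7sf2* shares 532 exon bases with *Vps51* on the same strand, and *Vps51* averaged 2.61 FPKM. *Hsd17b7*, a ketosteroid reductase of the demethylation steps, had 7.64 and 5.35 FPKM in COS+APAP, 7.83 and 7.45 in APAP, and 10.62 and 10.58 in control (-0.33 ± 0.18, adjusted p = 0.185).

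Because these enzymes fell together, promoter sequences were read from RefSeq (GRCm38.p6), where 25 of the 30 genes had an entry of 300 bases, 250 before and 50 after the start. Coordinates of the deposited table matched GENCODE M21 (GRCm38) for 94.2% of the 55141 shared identifiers. Printed 5′ to 3′ on the gene's own strand are the promoters of *Mvd* (chr8:122443373-122443672, minus strand), *Nsdhl* (chrX:72918271-72918570, plus strand) and *Mvk* (chr5:114444019-114444318, plus strand), the 3 genes with an entry that fell furthest in APAP, of *Hmgcs1* (chr13:119690101-119690400, plus strand), added after the search because it holds a sterol regulatory element core, and of *Insig2* (chr1:121332540-121332839, minus strand), which rose most. Capitals mark matches, on either strand, to TCACNCCAC (the core of a sterol regulatory element), CCAAT (the box bound by NF-Y) and GGGCGG (the box bound by Sp1), where N is any base.
Mvd: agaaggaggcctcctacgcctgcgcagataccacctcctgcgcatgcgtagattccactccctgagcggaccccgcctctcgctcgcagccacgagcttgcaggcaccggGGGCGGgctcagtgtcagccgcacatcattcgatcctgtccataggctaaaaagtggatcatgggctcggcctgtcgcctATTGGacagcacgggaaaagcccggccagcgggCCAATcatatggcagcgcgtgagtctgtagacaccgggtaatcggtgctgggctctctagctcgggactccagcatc
Nsdhl: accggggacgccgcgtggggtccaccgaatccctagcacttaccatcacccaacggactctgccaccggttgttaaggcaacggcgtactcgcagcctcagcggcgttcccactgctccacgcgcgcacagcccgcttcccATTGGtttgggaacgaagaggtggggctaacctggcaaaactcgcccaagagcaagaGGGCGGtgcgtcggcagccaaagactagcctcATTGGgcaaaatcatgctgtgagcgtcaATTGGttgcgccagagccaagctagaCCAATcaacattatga
Mvk: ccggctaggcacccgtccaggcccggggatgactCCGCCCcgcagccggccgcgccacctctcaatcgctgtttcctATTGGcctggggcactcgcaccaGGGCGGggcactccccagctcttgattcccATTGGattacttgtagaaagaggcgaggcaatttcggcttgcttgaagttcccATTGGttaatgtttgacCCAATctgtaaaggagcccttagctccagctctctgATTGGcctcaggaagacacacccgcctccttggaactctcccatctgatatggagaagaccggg
Hmgcs1: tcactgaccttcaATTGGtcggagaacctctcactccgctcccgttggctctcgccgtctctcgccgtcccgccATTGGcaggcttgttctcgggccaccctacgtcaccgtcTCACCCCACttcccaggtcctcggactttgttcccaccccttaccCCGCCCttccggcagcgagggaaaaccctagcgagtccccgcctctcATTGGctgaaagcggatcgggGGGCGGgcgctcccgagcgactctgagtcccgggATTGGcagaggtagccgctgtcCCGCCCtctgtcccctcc
Insig2: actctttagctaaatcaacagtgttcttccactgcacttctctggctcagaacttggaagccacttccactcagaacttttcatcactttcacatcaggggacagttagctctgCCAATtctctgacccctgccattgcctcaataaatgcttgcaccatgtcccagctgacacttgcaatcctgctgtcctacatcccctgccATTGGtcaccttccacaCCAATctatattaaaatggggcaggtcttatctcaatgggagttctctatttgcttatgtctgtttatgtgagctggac

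The sterol regulatory element core TCACNCCAC was found in 1 of the 25 promoters, that of *Hmgcs1* (its first base at position -137 from the start), and in 1.22% of all 27025 promoters of this length. CCAAT was found in 20 of the 25 and in 37.9% of all, and GGGCGG in 19 of the 25 and in 35.9% of all. *Mvk* carried 5 CCAAT and 2 GGGCGG matches, *Nsdhl* 4 and 1, *Mvd* 2 and 1, *Hmgcs1* 4 and 3, and *Insig2* 3 and 0. A perfect direct repeat of the kind LXR binds was in 0 of the 25 and in 0.0111% of all. With so rare a match, 0 of 25 was likely for any genes and cannot tell whether LXR sites are present. In the 5 printed promoters no motif match overlapped another. These matches are descriptions of the letters in this window, not of binding.

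Of the 4 sensing genes, 2 rose and 0 fell in APAP against control by edgeR, and 1 was lower at an unadjusted p below 0.05, by DESeq2 and by limma. The share called by edgeR was near the 45.4% of all tested genes called in either direction there (23.3% higher, 22.1% lower). *Insig2* (ENSMUSG00000003721, chromosome 1, 121304353 to 121332589), an INSIG anchor, had 129.92 and 104.55 FPKM in COS+APAP, 149.4 and 197.63 in APAP, and 22.45 and 16.26 in control. All 4 libraries that received APAP lay above both control libraries, APAP 9.82-fold on the count scale (log2 fold change 3.30 ± 0.24, adjusted p = 0.00123), the highest of the 30 genes. *Insig1* (ENSMUSG00000045294, chromosome 5, 28071363 to 28078662), the other INSIG anchor, had 10.38 and 8.89 FPKM in COS+APAP, 60.67 and 25.68 in APAP, and 108.52 and 119.26 in control. Its APAP libraries differed from each other by more than its control libraries did, and the change missed the threshold (-1.25 ± 0.40, adjusted p = 0.0511); DESeq2, limma, upper quartile scaling and leaving out APAP replicate 1 or 3 brought it past (adjusted p of 0.00824 to 0.0379). Its log2 fold change was -2.04 without APAP replicate 1 and -0.74 without APAP replicate 3. *Scap* had 10.42 and 10.08 FPKM in COS+APAP, 15.45 and 14.06 in APAP, and 11.04 and 9.92 in control. It rose in APAP (0.63 ± 0.12, adjusted p = 0.0104), but not past the threshold without control replicate 3 (adjusted p = 0.0515). *Scap* overlaps 985 exon bases of an antisense gene that averaged 0.403 FPKM. *Srebf2* had 6.39 and 4.82 FPKM in COS+APAP, 5.83 and 5.25 in APAP, and 9.75 and 3.71 in control. The control libraries enclosed the other 4, and no change was called (-0.15 ± 0.45, adjusted p = 0.81).

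**Figure D2:**
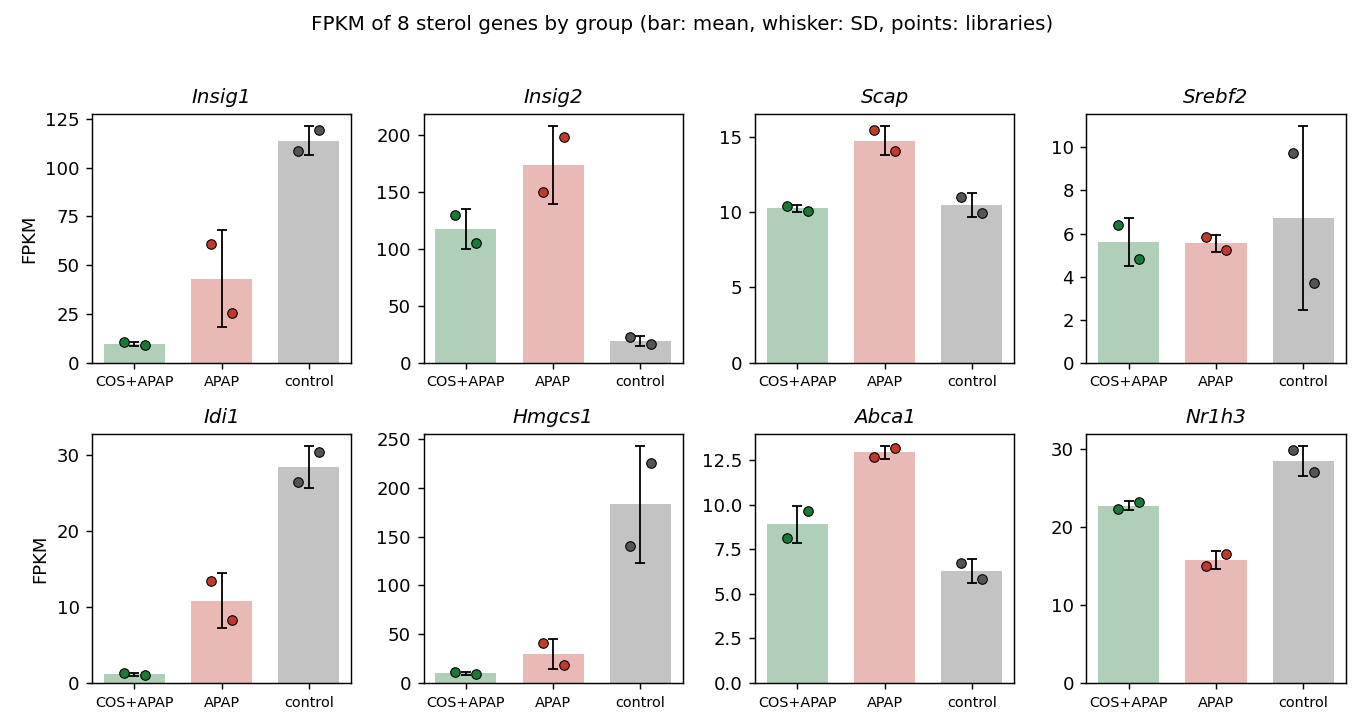
FPKM of 8 sterol genes in COS+APAP, APAP and control, with bars for the mean, whiskers for the SD (n = 2) and points for the libraries, on axes that start at 0. *Insig1*, *Idi1* and *Hmgcs1* are lowest in COS+APAP, between in APAP and highest in control, *Insig2* is high in both groups that received APAP, and the *Srebf2* control libraries lie at 9.75 and 3.71.

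Of the genes of traffic, efflux and storage, *Abca1* rose, *Stard4* and *Nr1h3* fell, and 4 were not called in APAP against control. The share called was thus near the 45.4% of all tested genes called in either direction there. *Abca1*, the pump that loads cholesterol onto apolipoprotein A-I (ENSMUSG00000015243, chromosome 4, 53030787 to 53159895), had 8.15 and 9.62 FPKM in COS+APAP, 12.68 and 13.18 in APAP, and 6.74 and 5.82 in control. Each group stood apart, APAP highest (1.18 ± 0.14, adjusted p = 0.00289). *Nr1h3* had 22.26 and 23.12 FPKM in COS+APAP, 14.96 and 16.56 in APAP, and 29.77 and 27.05 in control, and so fell in APAP (-0.71 ± 0.11, adjusted p = 0.00583). *Stard4*, a carrier of cholesterol between membranes and a known SREBP target, had 2.11 and 1.57 FPKM in COS+APAP, 6.77 and 4.13 in APAP, and 12.63 and 13.22 in control. Its fall in APAP (-1.10 ± 0.28, adjusted p = 0.0249) was lost without APAP replicate 3, control replicate 1 or control replicate 3 (adjusted p up to 0.0837).

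The biliary sterol pump is made of the products of *Abcg5* and *Abcg8*, neighbouring genes on opposite strands whose exons share 82 bases. *Abcg5* had 22.08 and 15.38 FPKM in COS+APAP, 10.59 and 17.23 in APAP, and 27.61 and 22.17 in control. *Abcg8* had 11.35 and 8.16 FPKM in COS+APAP, 5.7 and 10.14 in APAP, and 10.73 and 6.02 in control. Neither was called in APAP (-0.71 ± 0.28 and 0.05 ± 0.38, adjusted p = 0.0912 and 0.932), and within each of the 3 groups the same library was higher for both genes. *Mylip* had 1.35 and 1.43 FPKM in COS+APAP, 0.87 and 1.12 in APAP, and 1.23 and 1.44 in control (-0.29 ± 0.22, adjusted p = 0.314). *Soat2*, which makes cholesterol esters in hepatocytes, had 17.2 and 19.53 FPKM in COS+APAP, 15.24 and 13.58 in APAP, and 16.08 and 14.28 in control (0.06 ± 0.15, adjusted p = 0.751).

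Costunolide pretreatment was then compared with APAP alone. Of the 30 genes, 8 fell and 2 rose, beside 11.1% of all tested genes called lower, 11.2% called higher and 22.4% called in either direction. Enzymes made up 4 of the falls and 1 of the rises. The median log2 fold change was -0.37 over the 30 genes and 0.01 over all tested genes. In FPKM, both COS+APAP libraries lay below both APAP libraries in 16 genes, as in 35.3% of tested genes, and above both in 6, as in 33.3%. Many calls of this comparison were lost when 1 library was left out, even a control library, which is no part of it. Such fits have fewer residual degrees of freedom and called fewer of all tested genes as well, so a lost call need not reflect the library left out. Leaving out COS+APAP replicate 2 left 3 lower, COS+APAP replicate 3 left 1, APAP replicate 1 left 2, APAP replicate 3 left 6, control replicate 1 left 5 and control replicate 3 left 6, with at most 1 higher in any of these.

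*Idi1* fell most, to 1.27 and 1.01 FPKM in COS+APAP against 13.35 and 8.23 in APAP, 9.35-fold on the count scale (log2 fold change -3.23 ± 0.29, adjusted p = 0.00589). Of the 10 called genes it alone was called in all 13 alternatives (adjusted p up to 0.0319), with a log2 fold change of -2.43 by limma on log2(FPKM + 1), a scale that understates changes of low genes. *Insig1* fell by 2.16 ± 0.42 on the log2 scale (adjusted p = 0.0221, up to 0.1005 without a COS+APAP library). Without APAP replicate 1 its log2 fold change was -1.38 (adjusted p = 0.0317). Both of its COS+APAP libraries, at 10.38 and 8.89 FPKM, lay far below the 60.67 and 25.68 of APAP. The sterol carrier *Stard4* fell by 1.56 ± 0.28 (adjusted p = 0.0198, up to 0.0864 in the alternatives), and the methylsterol oxidase *Msmo1* fell by 1.24 ± 0.22 (adjusted p = 0.0183, up to 0.0843). *Pmvk* fell by 0.86 ± 0.21 (adjusted p = 0.0404, up to 0.158) and *Tm7sf2*, not called in APAP against control, fell by 0.71 ± 0.16 (adjusted p = 0.0297, up to 0.105).

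*Abca1* and *Scap*, which had risen in APAP, were lower in COS+APAP than in APAP, *Abca1* by a log2 fold change of -0.52 ± 0.14 (adjusted p = 0.0497) and *Scap* by -0.51 ± 0.12 (adjusted p = 0.0369). Both calls were lost under upper quartile scaling and in most other alternatives (adjusted p up to 0.191 and 0.135). *Nr1h3* and *Ebp*, which had fallen in APAP, were higher in COS+APAP, by 0.55 ± 0.11 (adjusted p = 0.0256, up to 0.111) and 0.52 ± 0.12 (adjusted p = 0.0326, up to 0.118). *Insig2*, at 129.92 and 104.55 FPKM against 149.4 and 197.63 in APAP, was not called (-0.54 ± 0.22, adjusted p = 0.136).

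Among the 14 enzymes without a call, *Hmgcs1* (-1.59 ± 0.43, adjusted p = 0.0514), *Cyp51* (-1.09 ± 0.34, adjusted p = 0.0736) and *Mvd* (-0.89 ± 0.32, adjusted p = 0.105) had the largest estimates. DESeq2 called these 3 lower, with adjusted p of 0.00156, 0.0117 and 0.0381. Without APAP replicate 1 the *Hmgcs1* estimate was -0.88. Estimates were negative for 7 of the 11 squalene and sterol genes, among them the uncalled *Lss* (-0.66 ± 0.25), *Fdft1* (-0.65 ± 0.29), *Sqle* (-0.56 ± 0.21) and *Hsd17b7* (-0.22 ± 0.18). They were positive for *Ebp*, which was called, and for *Dhcr7* (0.16 ± 0.16), *Sc5d* (0.21 ± 0.14) and *Nsdhl* (0.16 ± 0.34), which were not. *Mvk* stood at -0.17 ± 0.11 and *Fdps* at -0.18 ± 0.33, also without a call. Mevalonate genes summed to 41.8 and 37.4 FPKM in COS+APAP, 99.5 and 56.8 in APAP, and 340 and 474 in control, whereas genes of the squalene and sterol steps summed to 162 and 145 in COS+APAP, 173 and 144 in APAP, and 458 and 535 in control. Of the mevalonate sum, *Hmgcs1* alone gave 10.94 and 8.8 FPKM in COS+APAP, 40.91 and 18.72 in APAP, and 140.84 and 225.56 in control. To the same sum *Idi1* gave 1.27 and 1.01 FPKM in COS+APAP and 13.35 and 8.23 in APAP. *Ebp* alone gave 73.72 and 75.85 FPKM of the later sum in COS+APAP, 55.93 and 49.35 in APAP, and 99.86 and 105.71 in control. The median log2 fold change in COS+APAP against APAP was -0.55 over the 8 mevalonate genes and -0.56 over the 11 later genes.

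**Figure D3:**
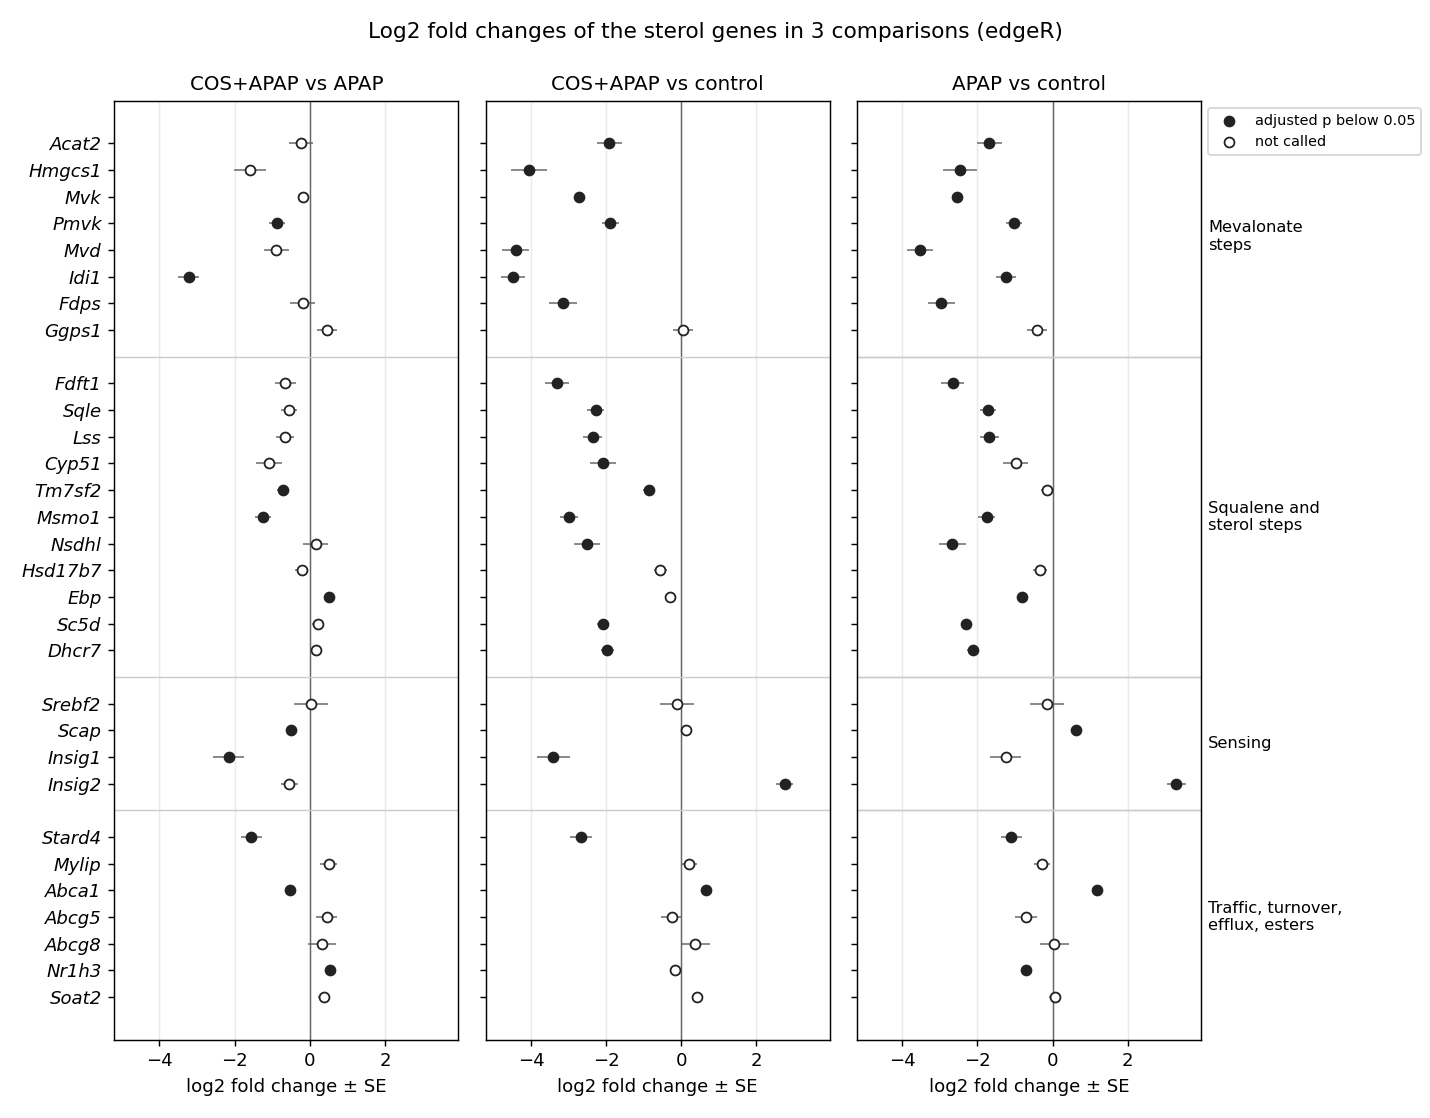
Log2 fold changes of the 30 sterol genes (points, with SE as lines) in COS+APAP versus APAP, COS+APAP versus control and APAP versus control, filled where the adjusted p was below 0.05. Most enzymes lie left of 0 in both comparisons with control, while in COS+APAP versus APAP 19 of the 30 points lie left of 0, with *Idi1* at -3.23, and 20 are open.

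Set against control, COS+APAP showed 18 genes lower and 2 higher, beside 10.3% and 10.7% of all tested genes and 21.0% called in either direction. In FPKM, both COS+APAP libraries lay below both control libraries in 22 genes, as in 42.3% of tested genes, and above both in 3, as in 25.0%. Of the 19 enzymes 16 fell and 0 rose, with 0 higher also at an unadjusted p below 0.05, by DESeq2 and by limma. Their median log2 fold change was -2.27, beside 0.02 for all tested genes. *Idi1* (-4.48 ± 0.31, adjusted p = 0.00273; -3.78 by limma on log2(FPKM + 1)) and *Mvd* (-4.41 ± 0.36, adjusted p = 0.00352) fell most, 22.3-fold and 21.2-fold, followed by *Hmgcs1* at 16.6-fold (-4.06 ± 0.48, adjusted p = 0.00702). *Insig1*, not called in APAP against control, fell 10.6-fold here (-3.41 ± 0.44, adjusted p = 0.00867), although the call was lost without COS+APAP replicate 3 (adjusted p = 0.0565).

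*Fdft1* stood at -3.30, *Fdps* at -3.14, *Msmo1* at -2.99, *Mvk* at -2.73, *Stard4* at -2.66 and *Nsdhl* at -2.51, all called lower in COS+APAP against control. *Lss*, *Sqle*, *Cyp51*, *Sc5d*, *Dhcr7*, *Acat2*, *Pmvk* and *Tm7sf2* made up the rest of the falls, between -2.35 and -0.85, of which *Cyp51*, *Acat2* and *Tm7sf2* lost the call in some alternatives that left out a library (adjusted p up to 0.0850). *Insig2* rose 6.73-fold (2.75 ± 0.24, adjusted p = 0.00372). *Abca1* was higher as well (0.66 ± 0.14, adjusted p = 0.0289), a call lost in 9 of 13 alternatives (adjusted p up to 0.121), among them the leaving out of any 1 library. *Ebp* (-0.30), *Hsd17b7* (-0.55), *Ggps1* (0.04), *Srebf2* (-0.11), *Scap* (0.12), *Mylip* (0.21), *Abcg5* (-0.26), *Abcg8* (0.37), *Nr1h3* (-0.17) and *Soat2* (0.43) were not called.

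Libraries of a group differed in a shared way across the enzymes. APAP replicate 1 was above APAP replicate 3 in 15 of 19 enzymes, although it was the higher library in 41.8% of all tested genes. COS+APAP replicate 2 was above COS+APAP replicate 3 in 14 of 19 enzymes, with 1 tie, beside 51.0% of all tested genes. Control replicate 1 was above control replicate 3 in 1 of 19, beside 48.8% of all tested genes. The median ratio over the enzymes was 1.34 between the APAP libraries, 1.25 between the COS+APAP libraries and 0.822 between the control libraries. Over all tested genes it was 0.964, 1.006 and 0.996 in the same order. This spread within groups is the error against which the tests set the group differences.

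Other sterol machinery was more evenly split. Of all tested genes, 45.4% were called in either direction in APAP against control. The shares were 22.4% in COS+APAP against APAP and 21.0% in COS+APAP against control. These shares stand beside the counts of both lists below. Among 21 tested genes of processing, degradation, storage and transport that are not in the list above, 8 rose and 4 fell in APAP against control (median 0.11; 3 and 5 under upper quartile scaling, 3 and 4 with limma), 1 rose and 3 fell in COS+APAP against APAP (median -0.10), and 4 rose and 4 fell in COS+APAP against control (median 0.02; 0 and 5 with limma). *Nceh1*, a cholesteryl ester hydrolase, rose by 1.78 in APAP against control, and the sterol carrier gene *Stard5* fell by 1.05 there and rose by 1.33 in COS+APAP against APAP. The genes of isoprenoid use (prenylation, dolichol and ubiquinone), which branch from the same diphosphates, included 2 that rose and 3 that fell of 10 tested in APAP against control, with *Rabggtb*, a subunit of Rab prenyltransferase, at 1.44. In COS+APAP, 0 of these 10 rose and 1 fell against APAP (edgeR; limma called 1 higher, DESeq2 and upper quartile scaling 4 higher), and 0 rose and 1 fell against control (edgeR; DESeq2 called 2 higher, limma 0). At an unadjusted p below 0.05, 4 were higher in the first and 3 in the second. *Rabggta*, the partner subunit of *Rabggtb*, fell by 0.80 in APAP against control.

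Among 15 tested lipogenic genes, driven by the related factor SREBP1c, 8 fell, 1 rose and 6 were not called in APAP against control (median -0.55), beside 22.1% of all tested genes called lower. In COS+APAP against APAP 5 fell, 1 rose and 9 were not called (median -0.41), beside 11.1% called lower, and in COS+APAP against control 9 fell, 0 rose and 6 were not called (median -1.57), beside 10.3%. At an unadjusted p below 0.05, 0 were higher in the last of these, and DESeq2 and limma also called 0 higher. *Srebf1*, the gene of SREBP1, had 3.45 and 3.6 FPKM in COS+APAP, 7.24 and 6.8 in APAP, and 27.68 and 29.01 in control. It fell in APAP against control (-1.87 ± 0.11, adjusted p = 0.00101) and in COS+APAP against APAP (-0.97 ± 0.11, adjusted p = 0.00756). *Srebf2*, with control libraries as far apart as 9.75 and 3.71 FPKM, was called in neither, and a difference between these genes was not tested. *Fasn*, fatty acid synthase, fell by 2.40 in APAP against control and was not called in COS+APAP against APAP (-0.30). *Thrsp*, a gene of lipogenic regulation, fell by 4.75 in APAP against control and rose by 1.82 in COS+APAP against APAP. *Elovl5*, a fatty acid elongase, was the gene that rose in APAP against control (1.18), and it fell by 1.25 in COS+APAP against APAP.

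Genes of fasting and of the hour of day were read beside the sterol genes. Of 10 tested genes of fasting and PPARalpha signalling, 6 rose and 0 fell in APAP against control (median 1.57). Beside them, 23.3% of all tested genes were called higher and 22.1% lower. In COS+APAP against APAP 1 rose and 3 fell (median -0.34), beside 11.2% called higher and 11.1% lower. In COS+APAP against control 5 rose and 0 fell (median 1.34), beside 10.7% called higher and 10.3% lower. *Fgf21*, a fasting hormone of liver, had 7.66 and 8.34 FPKM in COS+APAP, 50.34 and 22.96 in APAP, and 0.65 and 0.93 in control. It rose by 5.68 ± 0.49 in APAP against control (adjusted p = 0.00152) and fell by 2.18 ± 0.41 in COS+APAP against APAP (adjusted p = 0.0209). Of 13 tested clock genes, 4 rose and 3 fell in APAP against control, where 45.4% of all tested genes were called. In COS+APAP against APAP 1 rose and 4 fell, where 22.4% of all tested genes were called. In COS+APAP against control 2 rose and 5 fell, where 21.0% were called. *Per3* had 0.74 and 0.52 FPKM in COS+APAP, 0.16 and 0.26 in APAP, and 6.87 and 5.83 in control, high in control only. The part of feeding state or hour of collection in the sterol gene results was not tested.

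**Figure D4:**
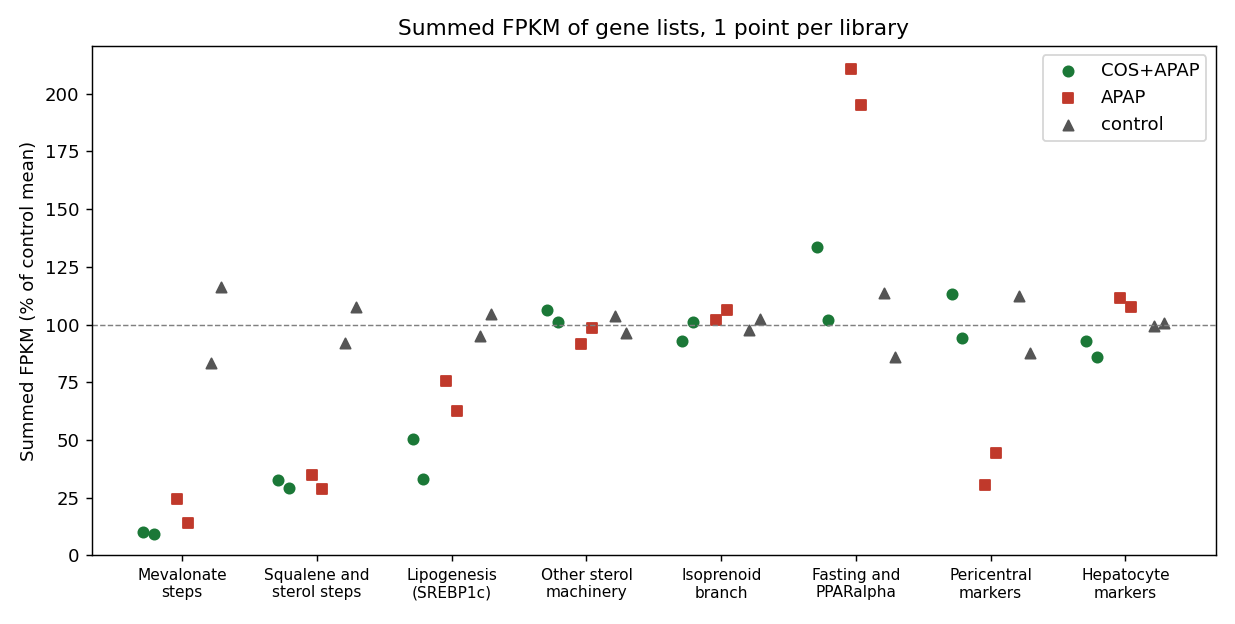
Summed FPKM of gene lists as a percentage of the control mean, 1 point per library, with circles for COS+APAP, squares for APAP and triangles for control. Mevalonate genes lie at 10.3% and 9.21% in COS+APAP and 24.5% and 14.0% in APAP, whereas pericentral markers lie at 113% and 94.0% in COS+APAP and 30.5% and 44.2% in APAP.

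The plot of summed lists sets the sterol genes beside the pericentral markers, a difference that was not tested. Pericentral markers lay near control in COS+APAP and low in APAP, while the synthesis enzymes summed to 22.5% and 20.2% of the control mean in COS+APAP and to 30.2% and 22.2% in APAP. Among the 7 tested pericentral markers, *Cyp7a1*, which turns cholesterol into bile acids, had 22.19 and 39.59 FPKM in COS+APAP, 0.93 and 0.53 in APAP, and 28.71 and 38.94 in control. It rose by 5.42 ± 0.47 in COS+APAP against APAP (adjusted p = 0.00575) and fell by 5.39 ± 0.47 in APAP against control (adjusted p = 0.00153).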

How the data were processed

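The authors deposited estimated counts and FPKM values for each gene in each library, as its file headers say; the submitters' processing notes name HISAT2 2.0 and StringTie 1.3.0, and the genome build, annotation and strand setting are not given in the sources used here. A further 6 value columns matched no sample and were not used. Counts were whole numbers already, totalling 71115112 to 76669799 per library. A count of 4 was found in 766 to 990 genes of a library and a count of 3 in 290 to 350, so counts are not single fragments and counting intervals were not computed. The 10051 genes whose mean FPKM reached 1 were tested with edgeR 4.0.16 in R 4.3.3: quasi-likelihood F test, TMM scaling, 1 model of 3 groups over 6 libraries with 3 residual degrees of freedom, two-sided, Benjamini-Hochberg adjustment. The SE is the log2 fold change over the square root of F. With 2 libraries a group no exact permutation test of 1 gene can give p below 0.33. Alternatives used DESeq2 1.42.0 and limma 3.58.1 (log2(FPKM + 1) and log2(FPKM + 0.1)), other scalings and filters, and left out each library. Scripts were tested on simulated data. The 30 genes and all lists were chosen with earlier results of these data known. All 30 are named, and other lists by their key genes and at most the 2 largest called changes; *Cyp7a1*, *Acat3*, *Elovl5*, *Rabggta* and the cell markers were chosen for their role, *Ctsb* and *Vps51* for their overlap, after values were seen.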

Additional observations from a re-analysis of the deposited data

How the results depend on the processing

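In APAP against control, 274 of 280 values of the 20 called genes over 14 alternatives kept direction and call, and 6 lost the call; none changed sign. In COS+APAP against control, 242 of 260 did so, and in COS+APAP against APAP 80 of 130, again with no change of sign. Genes called lower in COS+APAP against APAP numbered 5 under upper quartile scaling, 4 with no filter and 5 with filterByExpr, beside 8, and 0 were called higher with no filter, beside 2. With no filter 1 was higher in COS+APAP against control, as with limma at either pseudocount, beside 2. DESeq2 called 3552 tested genes in COS+APAP against APAP, beside 2249, and 3421 in COS+APAP against control, beside 2109. Leaving out 1 library each gave 3044 to 4117 calls with 14 to 19 sterol genes lower and 2 to 3 higher in APAP against control, 612 to 1941 calls with 1 to 6 lower and 0 to 1 higher in COS+APAP against APAP, and 590 to 1724 calls with 14 to 18 lower and 1 higher in COS+APAP against control. Upper quartile scaling moved the median of all tested genes to -0.12 in APAP against control and to 0.12 in COS+APAP against APAP, where the sterol genes had medians of -1.18 and -0.26; 62.8% of the calls in COS+APAP against APAP were then higher, beside 50.2%. With limma on FPKM, 29.4% and 30.5% of the calls in COS+APAP against control were higher, beside 50.9%, and 40.7% and 40.4% in APAP against control, beside 51.4%. The limma fits took FPKM as deposited, without TMM scaling. TMM factors were 1.07 and 1.08 in control and 0.95 to 0.99 in the other libraries. Medians of all tested genes in COS+APAP against control were -0.11 and -0.13 with limma, beside 0.02. The cause was not tested.

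Among values that were never called, signs turned as follows. In APAP against control, *Abcg8* (0.05) stood at -0.064 under upper quartile scaling, at -0.0709 and -0.0791 with limma and between -0.3924 and 0.5379 with 1 library left out, and *Soat2* (0.06) at -0.0542, -0.0702, -0.0745 and between -0.0537 and 0.1686. *Srebf2* stood at 0.0157 with the replicate block and between -0.6878 and 0.7284 with 1 library left out. In COS+APAP against control, *Ggps1* stood at -0.0663 and -0.101 and *Scap* at -0.0276 and -0.0299 with limma. With 1 library left out *Ggps1* ranged from -0.1177 to 0.2183 and *Srebf2* from -0.6538 to 0.7624 in that comparison. In COS+APAP against APAP the same omissions gave -0.2833 to 0.5253 for *Nsdhl*, -0.1737 to 0.2156 for *Srebf2*, -0.5663 to 0.1884 for *Fdps*, -0.4876 to 0.0089 for *Hsd17b7*, -0.6253 to 0.3162 for *Acat2* and -0.0162 to 0.7647 for *Abcg8*.

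The labels give control and APAP the same replicate numbers, 1 and 3, without saying that a number marks a shared animal, batch or day. Deviations of same-numbered libraries correlated at -0.0052 across tested genes. With the replicate number as a block, 3370 tested genes were called in APAP against control, beside 4561, and 17 sterol genes fell and 3 rose, as without it. No paired analysis was possible for the comparisons with COS+APAP because those groups share only replicate number 3.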
